A study of Mus musculus with 6 samples.

Results

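The 10 genes examined here belong to the heat shock system of the cytosol and the mitochondria, and were measured in astrocytes sorted from mouse brain. They were taken by symbol from the deposited expression table, as the rows named Hspa1a, Hspa1b, Hspa8, Hsph1, Hsp90aa1, Hsp90ab1, Dnajb1, Hspb1, Hspd1 and Hsbp1, which make up 10 of the 45777 genes listed. All 10 had reads in every sample and were tested. None of them was called in the comparison of STZ with vehicle, where a gene was called when its fold exceeded 1.5 and its adjusted p was below 0.05 in edgeR, as 0.0224% of all genes tested were. The constitutive chaperone Hspa8, the most abundant of the 10, showed the largest difference, 28.9% lower on average after streptozotocin (STZ), with every STZ sample below every vehicle sample.

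Heat shock proteins are chaperones, proteins that bind unfolded or partly folded chains and help them fold, refold or be degraded. Heat, oxidative damage or a load of misfolded protein frees heat shock factor 1 (HSF1), which then binds repeated GAA and TTC units (heat shock elements) in the promoters of inducible chaperone genes and raises their transcription. In the brain, astrocytes are among the cells in which the inducible HSP70 and the small heat shock protein HSP25 (Hspb1) are readily raised by stress, while the constitutive HSP70 and HSP90 forms are abundant in nearly all cells.

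Astrocytes came from male C57BL/6 mice that carry an Aldh1l1-CreERT2 driver and a floxed tdTomato reporter (Aldh1l1-CreERT2; tdTomato fl/fl), a genotype given by the methods, while the sample labels give WT. All mice, controls included, had received tamoxifen at 75 mg/kg for 5 days. At 8 weeks of age they were given either 1 intraperitoneal dose of STZ, a toxin of pancreatic beta cells, at 150 mg/kg, or citrate buffer (vehicle), and brains were collected 21 days later. Each sample was a separate pool of TdTomato-positive cells from 3 mice, and there were 3 vehicle and 3 STZ samples. The sort collects whatever cells recombined under the Aldh1l1 promoter, and only STZ-treated mice that became hyperglycaemic were used, so that high glucose, loss of insulin and STZ itself cannot be told apart. Total read counts per sample ranged from 52529048 to 58749115, and 3 counts, the smallest number read as detection, corresponded to between 0.0511 and 0.0571 CPM (counts scaled to library size), a limit that covers counting error only. Astrocyte markers were far more abundant than neuronal ones, with means over the 6 samples of 312 TPM (a library-scaled value per transcript length) for Aldh1l1 and 422 TPM for Aqp4 against 0.412 TPM for the neuronal marker Rbfox3. On the first principal component (38.8% of the variance), vehicle replicate 1 lay at the far end, with a score of -60.8 against -24.6 and 8.33 for the other vehicle samples and 4.55 to 41.0 for the STZ samples. It also had the lowest summed level of 6 choroid plexus markers, 6006 CPM against 9109 to 17731 CPM in the other samples, and the lowest of 9 endothelial markers. Most of its choroid plexus sum was Ttr (5486.5 CPM), while Kl and Clic6 were lowest in STZ replicate 2. Vehicle replicate 1 had the highest sums of the astrocyte and microglial markers, 17411 and 482 CPM. Values that rest on this sample are therefore given with and without it.

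Sequences from the promoter windows of the inducible genes show what the heat shock elements look like and how far the closely related members are alike. The 250 bases before the annotated start of Hspa1a and of Hspb1 are given in full, as the promoters of the inducible HSP70 and the small heat shock protein, and short stretches are given for the other members whose windows held an element. They are from RefSeq (GRCm38.p6), 5′ to 3′ on the gene's strand, with the GAA and TTC units of each element in capitals:
Hspa1a, chr17:34972157-34972406, minus strand: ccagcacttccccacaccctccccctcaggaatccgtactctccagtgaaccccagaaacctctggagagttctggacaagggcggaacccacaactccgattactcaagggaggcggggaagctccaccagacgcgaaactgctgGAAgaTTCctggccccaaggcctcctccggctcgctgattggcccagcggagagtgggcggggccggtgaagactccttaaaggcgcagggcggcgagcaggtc
Hspb1, chr5:135887669-135887918, plus strand: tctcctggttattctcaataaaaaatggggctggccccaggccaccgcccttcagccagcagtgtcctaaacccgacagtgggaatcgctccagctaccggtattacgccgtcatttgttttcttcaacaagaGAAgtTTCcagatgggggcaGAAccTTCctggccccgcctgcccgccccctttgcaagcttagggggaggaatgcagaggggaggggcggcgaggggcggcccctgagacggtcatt
Hspa1b, chr17:34959324-34959353, minus strand: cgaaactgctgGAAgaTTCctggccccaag
Hsph1 upstream of its listed starts, chr5:149636351-149636380, minus strand: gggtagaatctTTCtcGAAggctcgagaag
Hsph1 after its listed starts, chr5:149636280-149636309, minus strand: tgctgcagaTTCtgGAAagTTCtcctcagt
Hspd1 upstream of its inner listed start, chr1:55088053-55088082, minus strand: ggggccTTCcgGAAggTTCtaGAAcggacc

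The letters searched were GAANNTTC and TTCNNGAA, each its own reverse complement, so that a match on 1 strand is a match on both, and the pair can overlap by the 3 bases of a shared unit. Windows ran from 250 bases before to 50 after a start. Of 32851 such windows in the annotation (1 chromosome was left out), 7.86% held GAANNTTC, 8.52% held TTCNNGAA, 15.1% held either and 0.603% held 3 units in a row, that is both in overlap. Windows were listed for 7 of the 10 members. Hspa1a, Hspa1b, Hsph1, Hspb1 and Hspd1 had a match, 3 units in a row were present in Hsph1 and Hspd1, and the windows of Dnajb1 and Hsbp1 held neither run of letters. Hspd1 had 2 windows, of which only the one at its inner start held an element, and the stretches of Hspd1 and Hsph1 lie within the gene spans given below, since those spans reach to an outer start. For Hspa8, Hsp90aa1 and Hsp90ab1 no window was listed. Such a match describes the sequence and does not show that a factor binds there.

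Hspa1a and Hspa1b were nearly identical in their promoters and reading frames, and less alike over their whole transcripts. They lie 10120 bases apart on chromosome 17 (Hspa1a, NCBI gene 193740, 34969359 to 34972156, and Hspa1b, gene 15511, 34956429 to 34959238, GRCm38, both on the minus strand), 296 of 300 promoter bases were identical, and their longest reading frames were 99.4% identical. By comparison, Hspa1a and Hspa8 were 73.9% identical and Hsp90aa1 and Hsp90ab1 75.6%. Over the whole transcripts, 47.1% of the 100-base windows of Hspa1a occurred in Hspa1b, and 49.9% of those of Hspa1b in Hspa1a. Reads from the shared windows could go to either gene, while other reads can tell them apart. The division of reads between Hspa1a and Hspa1b is therefore uncertain in part, and their sum is the safer measure.

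The 10 genes covered a wide range of levels. On the TPM scale, which corrects for transcript length, Hspa8 had a mean of 1623 TPM ± 307 (SD, n = 6), above 99.7% of the genes tested. It was followed by Hsp90ab1 with 550.3 TPM, Hsbp1 with 323 TPM, Hsp90aa1 with 303 TPM and Hspd1 with 126 TPM. The remaining members had 53.6 TPM (Hspb1), 46.2 TPM (Hsph1), 44.0 TPM (Dnajb1), 20.6 TPM (Hspa1a) and 19.9 TPM (Hspa1b). Neighbours in this order were separated in 6 of 6 samples, with ranges that did not overlap, except for Hsbp1 and Hsp90aa1, Hspb1 and Hsph1, Hsph1 and Dnajb1, and Hspa1a and Hspa1b, whose ranges overlapped. The constitutive HSP70 was thus the highest on this scale and the inducible pair the lowest.

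**Figure D1:**
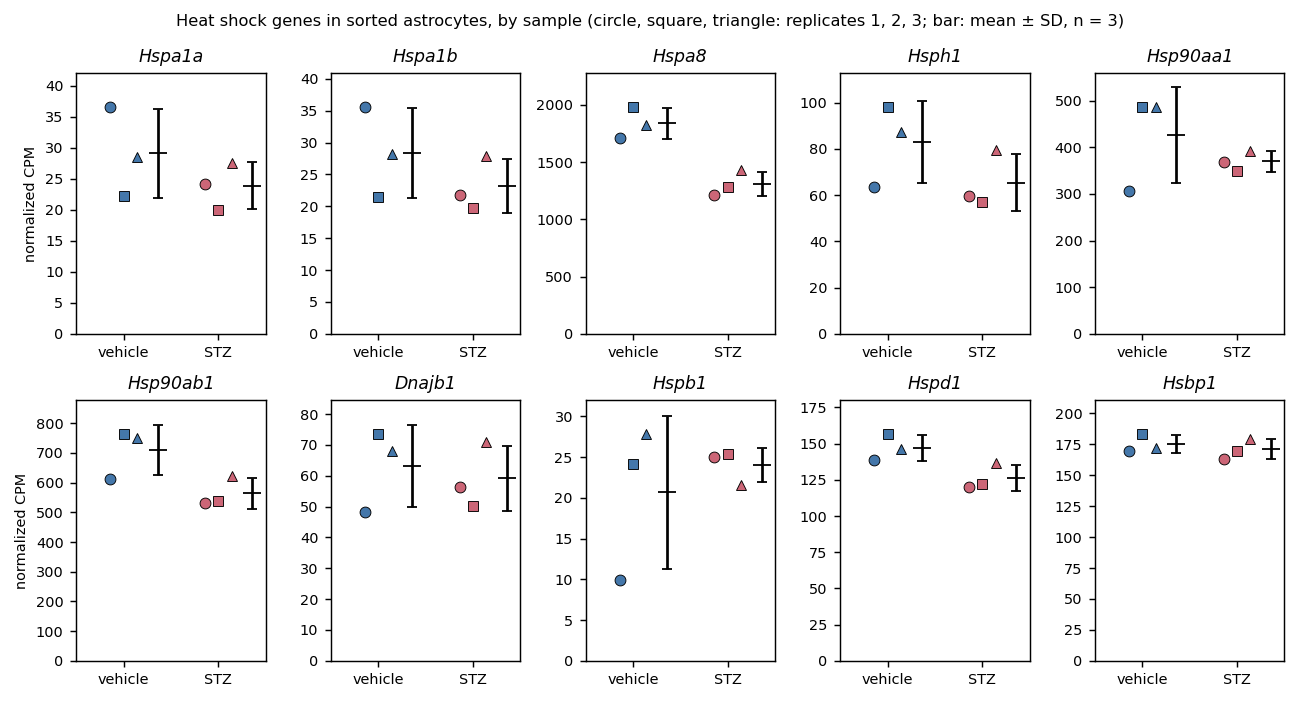
Normalised read counts (CPM) of the 10 heat shock genes, 1 panel per gene with an axis from 0, with 1 symbol per sample (circle, square and triangle for replicates 1, 2 and 3) and the mean ± SD of the 3 vehicle and the 3 STZ samples. The groups are apart for Hspa8 and Hspd1 and overlap for the other genes, and vehicle replicate 1 is the highest sample for Hspa1a and Hspa1b and the lowest for Hspb1, Hsp90aa1 and Dnajb1.

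Among the HSP70 proteins, Hspa8 (gene 15481, chromosome 9, 40801276 to 40805202, with snoRNA genes inside its introns), the constitutive HSC70 that folds new chains, uncoats clathrin vesicles and serves chaperone-mediated autophagy, stood at 1710, 1980 and 1825 CPM in vehicle replicates 1 to 3 and at 1217, 1279 and 1427 CPM in STZ replicates 1 to 3. The groups did not overlap, and the means were 1838 CPM ± 135 and 1308 CPM ± 108 (SD, n = 3 each). The log2 fold change was -0.49 (SE 0.104), with an adjusted p of 0.227 in edgeR's quasi-likelihood test, so the difference did not pass the threshold, although the difference between the means was over 3 times the SD of either group. In sorted pools, fewer cells that express a gene and less of its RNA per cell cannot be told apart. DESeq2, the tool named in the study's methods, gave Hspa8 an adjusted p of 0.00196, while the other alternatives gave 0.162 to 0.600. DESeq2 gave 1.71% of all genes tested an adjusted p under 0.05, and Hspa8 was the only one of the 10 members among them. Its fold of 0.711 stayed within the 1.5-fold limit that the study applied, so that it was not called by either tool.

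The inducible genes Hspa1a and Hspa1b, which encode near-identical forms of the HSP70 that is made after heat or proteotoxic stress, overlapped between the groups. Hspa1a had 36.5, 22.2 and 28.6 CPM in the vehicle samples and 24.2, 19.9 and 27.5 CPM in the STZ samples (log2 fold change -0.29, SE 0.193, adjusted p = 0.598, edgeR). Hspa1b had 35.5, 21.4 and 28.2 CPM with vehicle and 21.8, 19.7 and 27.9 CPM with STZ (log2 fold change -0.30, SE 0.201, adjusted p = 0.604, edgeR). Summed, the pair had 72.1, 43.7 and 56.8 CPM with vehicle and 46.0, 39.6 and 55.4 CPM with STZ, and the highest of the 6 samples was vehicle replicate 1 for each gene and for the sum. Hspa1a held 49.6% to 52.5% of the pair's reads in every sample, so that the counts divided nearly evenly.

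Hsph1 (HSP110, gene 15505, chromosome 5, 149616843 to 149636498), which exchanges the nucleotide of HSP70 and helps it take apart aggregates, had 63.4, 98.0 and 87.3 CPM with vehicle and 59.6, 57.1 and 79.6 CPM with STZ. STZ replicate 3 lay among the vehicle samples and vehicle replicate 1 among the STZ samples. The log2 fold change of -0.34 (SE 0.184) had an adjusted p of 0.523 (edgeR).

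The HSP90 proteins complete the folding of kinases and steroid receptors and keep HSF1 inactive in unstressed cells. The constitutive form Hsp90ab1 (gene 15516, chromosome 17, 45567778 to 45573261) had 612, 763 and 751 CPM in the vehicle samples and 531, 538 and 622 CPM in the STZ samples. Only vehicle replicate 1 and STZ replicate 3 crossed, and the log2 fold change was -0.33 (SE 0.114, adjusted p = 0.370, edgeR). The stress-inducible form Hsp90aa1 (gene 15519, chromosome 12, 110691036 to 110696395) had 307, 486 and 486 CPM with vehicle and 368, 349 and 392 CPM with STZ. Here vehicle replicate 1 was the lowest sample of all and the other vehicle samples were the highest, which left a log2 fold change of -0.21 (SE 0.173, adjusted p = 0.676, edgeR).

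Dnajb1 (HSP40, gene 81489, chromosome 8, 83608175 to 83612653), the J-domain protein that delivers clients to HSP70 and starts its ATPase, had 48.1, 73.5 and 68.1 CPM with vehicle and 56.3, 50.2 and 70.9 CPM with STZ. The groups overlapped fully (log2 fold change -0.10, SE 0.181, adjusted p = 0.871, edgeR). Hspb1 (gene 15507, chromosome 5, 135887919 to 135889563), an ATP-independent small heat shock protein that holds unfolded chains and protects actin filaments, was the only member with a higher mean after STZ. It had 9.98, 24.2 and 27.8 CPM with vehicle and 25.0, 25.4 and 21.6 CPM with STZ (log2 fold change 0.22, SE 0.329, adjusted p = 0.838, edgeR). The higher mean came from 1 sample, because vehicle replicate 1 was 0.383 times the mean of the other vehicle samples.

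Hspd1 (HSP60, gene 15510, chromosome 1, 55077833 to 55088243), the chaperonin that folds imported proteins in the mitochondrial matrix, had 139, 157 and 146 CPM with vehicle and 120, 122 and 136 CPM with STZ. The STZ samples all lay under the vehicle samples, by a small margin for STZ replicate 3, and the log2 fold change was -0.22 (SE 0.0814, adjusted p = 0.391, edgeR). Hspd1 overlaps Hspe1, its partner HSP10, which had a log2 fold change of -0.01, and reads in the overlap can go to either gene. Hsbp1 (gene 68196, chromosome 8, 119344538 to 119348929), which binds active HSF1 and dampens the response, had 170, 183 and 172 CPM with vehicle and 163, 170 and 180 CPM with STZ. It had the smallest difference and the smallest standard error of the 10 (log2 fold change -0.04, SE 0.0700, adjusted p = 0.876, edgeR).

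**Figure D2:**
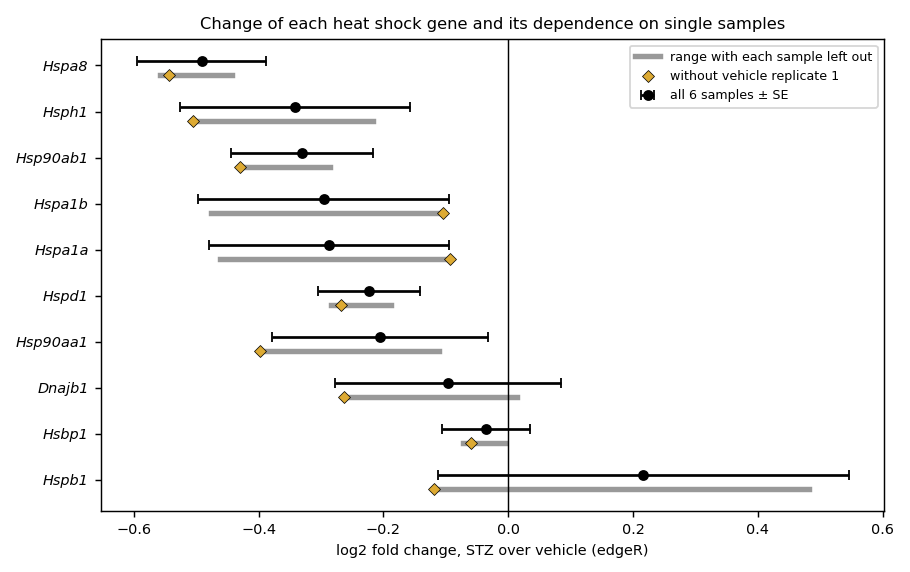
Log2 fold change of STZ over vehicle (edgeR) for the 10 heat shock genes with all 6 samples (black points, bars ± SE), with each sample left out in turn (grey bars, lowest to highest value) and without vehicle replicate 1 (diamonds). With all samples 9 of 10 genes lie below 0, and without vehicle replicate 1 all 10 do, Hspb1 moving from 0.22 to -0.12.

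Read as a group, 9 of the 10 members had a lower mean with STZ and the median log2 fold change was -0.26, against 0.01 over all 22337 genes tested, of which 48.1% were lower. None of the 10 was called by edgeR, which called 5 of all genes tested, or by DESeq2 at the same limits, which called 1.05%. At an unadjusted p under 0.05 in edgeR, Hspa8, Hsp90ab1 and Hspd1 were lower (3 of 10), beside 5.65% of all genes that were lower at that level, and none of the 10 was higher, beside 5.63%. All STZ samples lay below all vehicle samples for 2 of 10 members, beside 9.85% of all genes, and above them for 0 of 10, beside 8.64%. Several members share a regulator or near-identical sequence, so they are not independent of each other, and the counts describe these 10 genes only.

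The summed level of the members was lower with STZ, and Hspa8 was its largest part. The members together had 3212, 3732 and 3477 TPM with vehicle and 2644, 2659 and 2929 TPM with STZ, without overlap. Leaving Hspa8 out, the other 9 had 1399, 1707 and 1644 TPM with vehicle and 1359, 1331 and 1475 TPM with STZ. Only vehicle replicate 1 and STZ replicate 3 crossed, and leaving out either of these samples separated the groups. Hspa8 held 54.5% ± 1.88 of the members' summed TPM with vehicle and 49.4% ± 0.715 with STZ (SD, n = 3 each).

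From sample to sample several of the chaperones ran in parallel, and the inducible pair stood apart from them. Over the 6 samples, which include both groups, Pearson's r of log2 CPM was 0.967 for Hspa8 with Hspd1, 0.943 for Hsph1 with Hsp90ab1 and 0.902 for Hsph1 with Dnajb1, but 0.351 for Hspa1a with Hspa8, -0.19 for Hspb1 with Hspa8 and -0.77 for Hspa1a with Hspb1. Hspb1 had 0.686 with Hsp90aa1 and 0.538 with Dnajb1, while Hspa8 with Dnajb1 had 0.461. These values describe 6 samples that share libraries and the group difference. Vehicle replicate 2 was the highest of the 6 samples for 7 members, beside 15.1% of all genes. Vehicle replicate 1 was the highest for the inducible pair (22.8% of all genes) and vehicle replicate 3 for Hspb1 (10.7%). No STZ sample was the highest for any member, beside 18.9%, 14.8% and 17.8% of all genes for STZ replicates 1 to 3. The lowest sample was vehicle replicate 1 for 3 members, beside 25.6% of all genes. It was STZ replicate 1 for 4 members (17.2% of all genes) and STZ replicate 2 for 3 (13.7%). In vehicle replicate 1 the inducible pair stood at 1.44 (Hspa1a) and 1.43 (Hspa1b) times the mean of the other vehicle samples, while Hspb1 stood at 0.383, Hsp90aa1 at 0.632, Dnajb1 at 0.680 and Hsph1 at 0.684 times. Genes that HSF1 is known to raise thus lay on opposite sides in this sample. The summed choroid plexus markers were low there as well, as given above, and the part of those cells in the members' values was not tested.

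**Figure D3:**
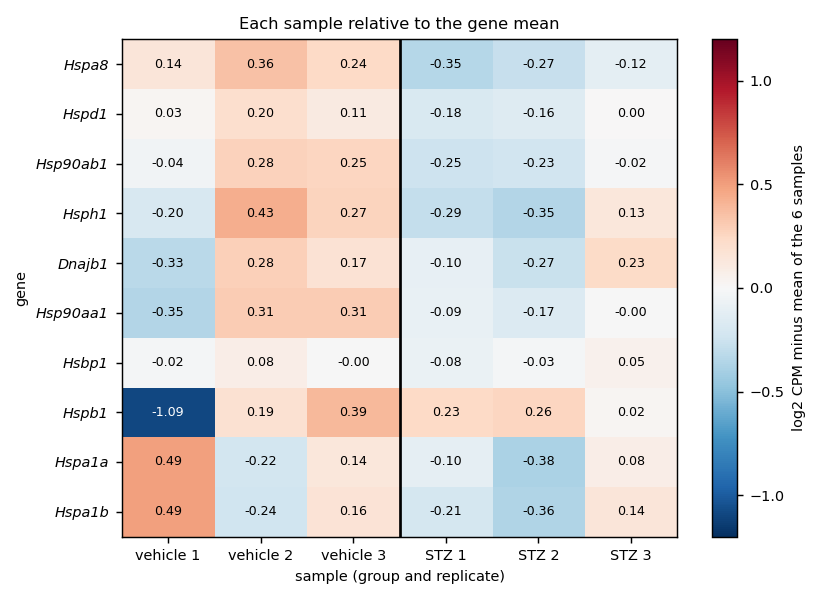
Heat map of each gene's log2 CPM in each sample minus its mean over the 6 samples (red above, blue below, value in each cell), with genes in rows and samples in columns. Vehicle replicate 1 is 0.49 above the mean for Hspa1a and Hspa1b and 1.09 below it for Hspb1, and the Hspa8 row is above its mean in all vehicle samples and below it in all STZ samples.

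Without vehicle replicate 1, all 10 members had a lower mean with STZ. Hspb1 turned from 0.22 to -0.12, Dnajb1 moved from -0.10 to -0.26, and the inducible pair shrank to -0.09 (Hspa1a) and -0.11 (Hspa1b) on the log2 scale. Hsp90aa1 moved from -0.21 to -0.40 and Hsph1 from -0.34 to -0.51, and both then had an unadjusted p under 0.05, as did Hspa8 (-0.54), Hsp90ab1 (-0.43) and Hspd1 (-0.27). These 5 of 10 members stand beside 5.85% of all genes that were lower at that level in the same fit. In 5 of 10 members the 3 STZ samples lay below the remaining vehicle samples, beside 15.7% of all genes. This count was added after the data were seen. Vehicle replicate 1 was the lowest sample for 3 members, beside 25.6% of all genes, and leaving out a low vehicle sample makes such an order easier to reach. With that sample left out, edgeR called 0 genes of 22795 tested (2358 at an unadjusted p under 0.05), so that no member was called there either.

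Several members share long stretches with processed pseudogenes, and the reads of such stretches could be assigned to either copy. Of the 100-base windows of the transcripts, 63.4% were shared with another gene's transcript for Hspa8, 56.5% for Hspa1a, 49.9% for Hspa1b, 47.5% for Hsp90aa1, 42.7% for Hspb1 and 26.9% for Hspd1, and none for Hsph1, Hsp90ab1, Dnajb1 and Hsbp1. The 7 pseudogene copies of Hspa8 had 16.6% to 17.7% as many reads as Hspa8 itself, and the largest of them, Gm15459, had 12915, 14154 and 15207 reads with vehicle and 10287, 10626 and 12160 with STZ. Copies of Hsp90aa1 had up to 12.4% of its reads, the copy of Hspb1 14.1% to 19.4% and that of Hspd1 1.67% to 2.22%. With the copies' reads added, the log2 fold changes were -0.49 for Hspa8, -0.20 for Hsp90aa1, 0.24 for Hspb1 and -0.22 for Hspd1.

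**Figure D4:**
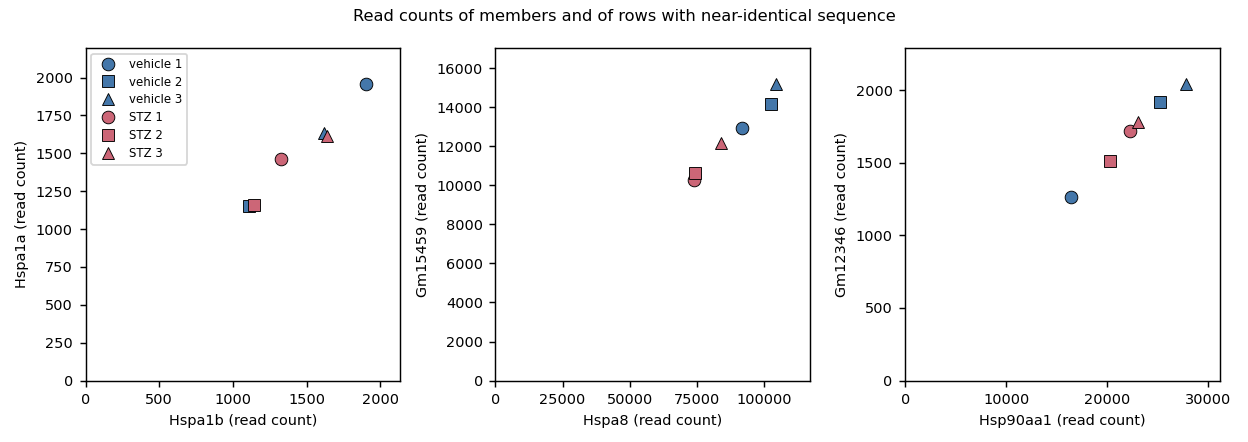
Read counts of Hspa1a against Hspa1b, of the pseudogene Gm15459 against Hspa8 and of the pseudogene Gm12346 against Hsp90aa1, 1 symbol per sample (blue for vehicle, red for STZ, linear axes from 0). In each panel the counts of the copy follow those of the gene from sample to sample, and Hspa1a and Hspa1b have nearly equal counts.

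The 3 heat shock transcription factors all had lower means with STZ, and none was at an unadjusted p under 0.05. Hsf1, the main activator, had a log2 fold change of -0.14 (47.5 CPM ± 3.63 with vehicle and 43.0 CPM ± 1.11 with STZ, SD, n = 3 each, adjusted p = 0.531, edgeR), and Hsf2 of -0.09. Hsf4 had a log2 fold change of -0.84 (adjusted p = 0.469), larger in size than that of any member, from levels close to the detection limit (0.182 and 0.101 CPM on average).

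Among 13 other cytosolic HSP70, HSP110 and J proteins, 7 were lower and 6 higher, with a median of -0.02, and 0 were called. The HSP110 relative Hspa4l had the smallest p-value, with 94.2 CPM ± 4.24 and 71.6 CPM ± 5.22 (log2 fold change -0.40, adjusted p = 0.208, edgeR) and no overlap. DESeq2 gave Hspa4l an adjusted p of 0.0177, with a fold within the 1.5-fold limit. The J protein Dnajb2 had a log2 fold change of -0.29 (adjusted p = 0.318). The HSP70 relative Hspa2 lay the other way, at 0.25 (adjusted p = 0.323), with every STZ sample above every vehicle sample.

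The 9 other HSP70 partners listed, which were the BAG proteins, Hspbp1, St13 and Stub1, had a median of 0.02. None of them was at an unadjusted p under 0.05. Bag4, St13 and Bag1 had the smallest p-values, with log2 fold changes of -0.23, -0.15 and -0.14. Of 12 HSP90 co-chaperones, 9 were lower (median -0.07), and 1 of them, the immunophilin Fkbp4, was at an unadjusted p under 0.05 (log2 fold change -0.23, adjusted p = 0.437). The phosphatase Ppp5c had -0.12 and Aarsd1 0.10. None of these genes was called.

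Among the other small heat shock proteins, 6 of 8 were tested, and Cryaa and Hspb7 lacked reads in some samples. Cryab (alpha B-crystallin), which like Hspb1 holds unfolded chains, had 221 CPM ± 23.5 with vehicle and 154 CPM ± 22.0 with STZ (log2 fold change -0.52, adjusted p = 0.261, edgeR), with no overlap, while Hspb1 had a higher mean with STZ. DESeq2 gave Cryab an adjusted p of 0.0173, with a fold within the 1.5-fold limit. Hspb6 had a log2 fold change of -0.39 and Hspb2 of 0.49, neither at an unadjusted p under 0.05. The 8 subunits of the cytosolic chaperonin TRiC, which folds actin and tubulin, had a median of -0.02, and the largest difference was that of Cct7 at -0.14.

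The 13 other mitochondrial chaperones and proteases had a median of -0.01, against -0.22 for Hspd1. The disaggregase Clpb had a log2 fold change of -0.26 (adjusted p = 0.302, edgeR) and no overlap between the groups. Hscb, a J protein of iron-sulfur cluster assembly, had 0.32, and the mitochondrial HSP90 Trap1 had -0.16. Hspa9, the mitochondrial HSP70, had -0.10.

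Chaperones of the endoplasmic reticulum (ER) fold secreted and membrane proteins, and most are raised by the unfolded protein response rather than by HSF1. They were lower with STZ for 13 of 13 genes, with a median of -0.50. Of these, 12 were lower at an unadjusted p under 0.05 and 12 had no overlap between the groups, against 3 and 2 of the 10 heat shock members. The collagen chaperone Serpinh1 (HSP47), which also responds to heat, fell from 168 CPM ± 9.57 to 99.8 CPM ± 1.60 (log2 fold change -0.76, SE 0.0688, adjusted p = 0.0377, edgeR). It was the only gene of these lists called by edgeR, and with any 1 sample left out edgeR called 0 or 1 gene in all. Hspa5 (BiP), the ER HSP70, had a log2 fold change of -0.65 (adjusted p = 0.169) and Calr of -0.58 (adjusted p = 0.117) in edgeR. DESeq2 gave adjusted p-values of 3.3e-05 for Hspa5 and 7.22e-07 for Calr, and called 3 of the 13 ER genes, Serpinh1, Hspa5 and Sdf2l1 (the last named after its values were seen). Whether the difference of the ER list is larger than that of the 10 members was not tested, because genes of a list are not replicates.

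**Figure D5:**
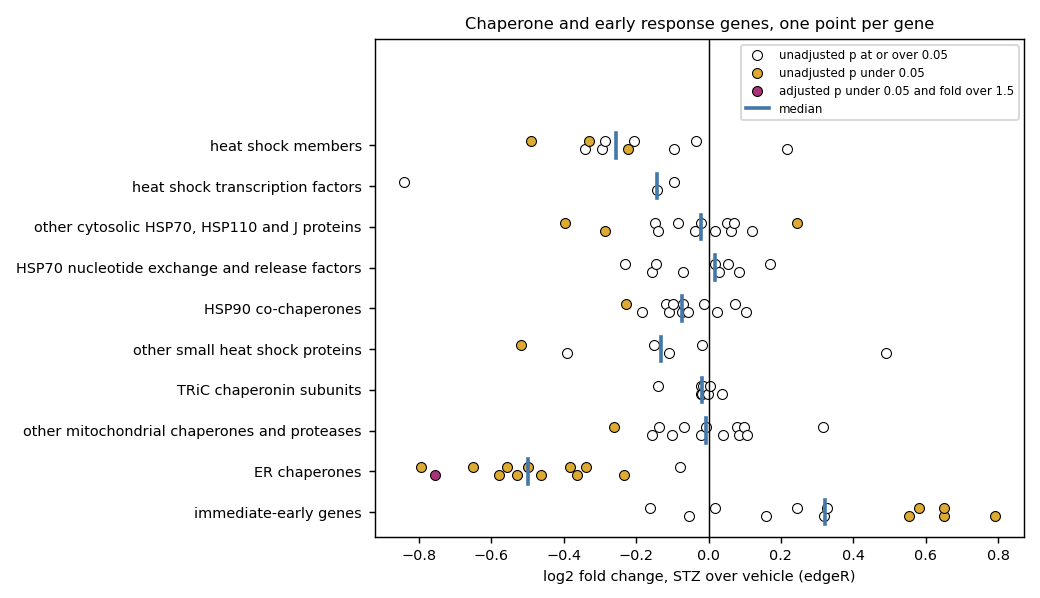
Log2 fold change of STZ over vehicle (edgeR) for each gene of the heat shock members and 9 related lists, 1 point per gene, with a bar at each list's median and colour for the unadjusted p and the call. The members' median is -0.26, the ER chaperones' -0.50, and the immediate-early genes lie mostly above 0.

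Tissue dissociation and sorting can raise immediate-early and heat shock genes in brain cells, so 12 immediate-early genes were read beside the members. Of these, 10 were higher with STZ and 5 were so at an unadjusted p under 0.05, beside 5.63% of all genes, and the median was 0.32. Their summed level was 744 to 948 CPM with vehicle and 993 to 1278 CPM with STZ, without overlap. Gene by gene, all STZ samples lay above all vehicle samples for 3 of 12, beside 8.64% of all genes. STZ replicate 3 had the lowest STZ sum and the highest Dusp1 of the 6 samples (288 CPM), so the separation leans on Dusp1. In that sample Fos (118 CPM), Junb (60.3 CPM) and Ier2 (36.4 CPM) lay within the vehicle range. Dusp1 had a log2 fold change of 0.79 (adjusted p = 0.289, edgeR), Zfp36 of 0.65 (adjusted p = 0.347) and Ier2 of 0.55 (adjusted p = 0.390). DESeq2 called Dusp1 (adjusted p = 0.00635) and no other gene of this list. Among the members with a heat shock element in their window, Hspb1 had a higher mean with STZ (0.22, or -0.12 without vehicle replicate 1), and Hspa1a, Hspa1b, Hsph1 and Hspd1 had lower means. The part of dissociation in the members' values was not tested.

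Several markers of other cells also differed in level between the groups. The 9 endothelial markers were all higher with STZ, 7 of them at an unadjusted p under 0.05, and their sum was 47.3 to 165 CPM with vehicle and 163 to 301 CPM with STZ. The 6 pericyte and smooth muscle markers summed to 132 to 178 CPM with vehicle and 166 to 217 CPM with STZ, and 3 of them were higher at an unadjusted p under 0.05, without overlap between the groups. These were Tagln (log2 fold change 2.65, adjusted p = 0.0723), Acta2 (1.30, adjusted p = 0.0980) and Rgs5 (1.02, adjusted p = 0.349), none called by edgeR and all 3 called by DESeq2. Pdgfrb (-0.08), Vtn (0.07) and Kcnj8 (0.50) of the same list were not at that level, and their groups overlapped. Of the 7 astrocyte markers, 6 were lower, with a sum of 14955 to 17411 CPM with vehicle and 13658 to 14961 CPM with STZ, among them Aqp4 at -0.48 (adjusted p = 0.280, edgeR) and Aldh1l1 at -0.22 (adjusted p = 0.398). DESeq2 gave adjusted p-values of 0.0169 for Aqp4 and 0.313 for Aldh1l1, and with the fold limit it called 0 astrocyte markers. The choroid plexus, microglial, oligodendrocyte and neuronal lists had no marker at an unadjusted p under 0.05, and their sums overlapped between the groups. All 6 choroid plexus markers had lower means with STZ, with a median of -0.38. So had 5 of 6 microglial, 4 of 6 oligodendrocyte and 3 of 6 neuronal markers, beside 48.1% of all genes. The part of the cell mixture in the members' values was not tested.

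By Pearson's r of log2 CPM over the 6 samples with the summed inducible pair, the closest of 16242 genes with a mean of at least 1 CPM were Pla2g6 (0.986), Eml5 (0.985), Gm5454 (0.984), Usp19 (0.984) and Herc4 (0.983). The likeness is of shape, not of size. Usp19, for example, ranged from 139 to 169 CPM, while the pair ranged from 39.6 to 72.1 CPM. With 6 samples and this many genes, values this high are a description only.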

How the data were processed

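RNA sequencing of tdTomato-positive astrocytes was available for 3 vehicle and 3 STZ samples, grouped by the treatment in the labels. The submitters' processing notes name Trimmomatic 0.38, HISAT2 2.1.0 and StringTie 2.1.3b, and the reads were aligned to mm10. The deposited read counts per gene are whole numbers without normalization. The authors also deposited FPKM values, which were not used here, and TPM values, which correct for transcript length. Methods and labels describe the library kit differently, and the use of strand in counting is not given in the sources used here.

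Only genes counted at least 1 time in each of the 6 samples were kept (22337). After TMM normalization the counts were fitted with edgeR 4.0.16 (R 4.3.3), with a two-sided quasi-likelihood test of STZ against vehicle, no covariates and Benjamini-Hochberg adjustment over all genes. A gene was called at an adjusted p under 0.05 and a fold over 1.5. CPM values are TMM-scaled, and log2 CPM used a prior count of 2. DESeq2 1.42.0, its size factors in edgeR, other filters on low counts, the replicate number as a block, limma 3.58.1 on log2 TPM, the summed Hspa1a and Hspa1b, and leaving out each sample were the alternatives. Adding the reads of near-identical pseudogenes and comparing the group ranges without vehicle replicate 1 were chosen after seeing the data. Shared 100-base windows and reading frames were found in the GENCODE transcripts with Python 3.11.15 and Biopython 1.88. The procedures were tested on simulated data.

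The 10 members and the gene lists were chosen with earlier results of these data known. Named genes were the members, the 3 genes of each list with the smallest p-value and the 5 genes most like the summed Hspa1 pair. Other genes of the lists, such as Hspe1 and Hspa9, were named after their values were seen. P-values measure the spread between pools of mice.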

Additional observations from a re-analysis of the deposited data

How the results depend on the processing

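Of 135 values of the members under the alternatives, 131 kept their direction and their side of the threshold, 1 passed it (Hspa8 in DESeq2, adjusted p = 0.00196) and 3 reversed. When single samples were dropped, Dnajb1 ran on the log2 scale from -0.26 to 0.014 and Hspb1 from -0.12 to 0.48. Dnajb1 reversed without vehicle replicate 2 and without STZ replicate 2, and Hspb1 without vehicle replicate 1, and the cause was not tested. The members at an unadjusted p under 0.05, 3 with all samples, numbered 1 to 5, with 5 without vehicle replicate 1 and 1 without vehicle replicate 3, STZ replicate 1 or STZ replicate 2. Among all genes, in either direction, 2519 of 22337 (11.3%) were at that level with all samples and 2358 of 22795 without vehicle replicate 1. In the fits with 1 member they were 2722 of 22552, 1910 of 22517 and 1704 of 22505, in the order given. Over all genes, edgeR called 5, DESeq2 234, limma 0 on log2(TPM + 1) and 0 on log2(TPM + 0.1) (2635 and 2612 at an unadjusted p under 0.05), and edgeR 0 to 1 with each sample left out.

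The fit with the replicate block called 0 genes in edgeR, with 1793 at an unadjusted p under 0.05. Same-numbered samples had correlations of their deviations of -0.10, -0.16 and -0.18, the samples are different pools and no source names a pairing, so the numbers do not pair them. The lowest level of a member in any sample was 9.98 CPM, far above the 3-count limit.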
